A study of Mus musculus with 10 samples.

Results

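Thymosin beta-4 and genes of the actin cytoskeleton were described in the liver of fasted mice made to lose the glucocorticoid receptor in myeloid cells. The genes were taken by symbol from the count table of polyadenylated liver RNA. Of 10 listed symbols 9 had a row (Tmsb4x, Tmsb10, Actb, Actg1, Pfn1, Cfl1, Arpc1b, Arpc2 and Coro1a), among 19764 genes in all, and the remaining listed gene, Lcp1, was not analysed here. All 9 had enough counts to be tested. The list was selected on results of the same comparison of GRMAC with GRflox, in which the log2 fold change of Tmsb4x passed the adjusted threshold as higher in GRMAC, so that difference is given below for each of the 9 genes as a description, without a test.

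The 5 GRMAC libraries came from livers of female mice of genotype GRflox; LysM-Cre+/-, in which Cre driven from the LysM locus acts on the floxed receptor gene in macrophages, neutrophils and other myeloid cells. The 5 GRflox libraries came from female littermates that carried the floxed gene and no Cre. All mice were fasted for 8 h from ZT12, and no fed mice were included, so the values describe the fasted liver only. Since only GRMAC mice carried Cre, its presence and loss of the receptor cannot be told apart. The labels do not state a separate mouse for each library, so the spread given here is that between libraries.

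Library totals were 23258884 to 26116916 counts in GRMAC and 25697931 to 27692528 counts in GRflox. Hepatocyte markers, fixed as a list of 13 genes that includes Alb and Apoa1, summed to 123578 to 149024 CPM (counts scaled to a common library size) in GRMAC and to 131254 to 147010 CPM in GRflox, as the liver label requires. CPM values throughout were scaled between libraries by TMM, a factor computed from the bulk of genes. The targeted gene, Nr3c1, averaged 82.5 ± 7.75 CPM in GRMAC and 72.8 ± 7.14 CPM in GRflox (SD, n = 5 each), with an edgeR adjusted p of 0.277. Hepatocytes express this gene as well, so its level in whole liver does not check the deletion in myeloid cells.

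Actin exists as free monomers and as filaments, and cells move and change shape by shifting it between these states. Beta-thymosins bind monomers and hold them back from polymerising, profilin carries monomers to growing filament ends, cofilin severs and disassembles old filaments, and the Arp2/3 complex starts new branches that coronins help to remove. Thymosin beta-4 is abundant in blood leukocytes and platelets, and Coro1a and Rac2 are known chiefly from blood cells, whereas actin, profilin and cofilin are made by nearly every cell. In whole liver, more cells of a type and more RNA per cell cannot be told apart.

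Tmsb4x, which encodes thymosin beta-4, and Tmsb10, which encodes thymosin beta-10, are close relatives with the same coding length of 135 bases. The whole transcripts are 768 bases for Tmsb4x and 623 for Tmsb10, and only their coding parts were compared. These coding sequences are shown to mark the bases at which they differ. They were joined from the exons of the GENCODE M21 annotation (GRCm38, the assembly of mm10), on the minus strand within chrX:167207501-167208036 for Tmsb4x and within chr6:72957618-72958012 for Tmsb10. Capitals mark the 40 bases that differ, and the other 95 are identical (70.4% identity).
Tmsb4x: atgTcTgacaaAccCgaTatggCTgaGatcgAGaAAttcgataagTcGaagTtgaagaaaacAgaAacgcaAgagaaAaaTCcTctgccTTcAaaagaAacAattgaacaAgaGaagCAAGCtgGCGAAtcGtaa
Tmsb10: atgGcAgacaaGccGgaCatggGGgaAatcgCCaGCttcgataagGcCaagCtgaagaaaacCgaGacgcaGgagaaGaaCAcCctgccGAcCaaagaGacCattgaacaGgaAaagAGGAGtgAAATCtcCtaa
The differences were spread along the whole coding sequence. No other annotated transcript matched the Tmsb4x coding sequence at 90% identity or more over at least 80% of its length. For Tmsb10, 7 annotated pseudogenes and the gene Gm9844 did, so its counts are less certain.

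The windows at the starts of Tmsb4x and Actg1, from 250 bases before to 50 bases after the annotated start, are printed because they were the only ones of 11 such windows of these genes that held a TGTTCT, the unit that the glucocorticoid response element repeats, on either strand. Both sequences are RefSeq's for GRCm38.p6, read 5′ to 3′ on the minus strand. The Tmsb4x window is chrX:167209169-167209468, and its capitals mark the TGTTCT, which lies on the other strand and so reads AGAACA, beginning at base −222 counted back from the start. The Actg1 window is chr11:120348446-120348745, and its capitals mark a CArG box at base −90, the motif that serum response factor binds in actin genes, and a TGTTCT at base −77.
Tmsb4x: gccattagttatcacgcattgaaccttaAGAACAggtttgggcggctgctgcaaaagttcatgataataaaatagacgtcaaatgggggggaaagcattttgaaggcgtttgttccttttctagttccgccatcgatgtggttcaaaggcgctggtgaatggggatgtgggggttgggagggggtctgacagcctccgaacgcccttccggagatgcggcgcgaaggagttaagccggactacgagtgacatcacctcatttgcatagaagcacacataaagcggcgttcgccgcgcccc
Actg1: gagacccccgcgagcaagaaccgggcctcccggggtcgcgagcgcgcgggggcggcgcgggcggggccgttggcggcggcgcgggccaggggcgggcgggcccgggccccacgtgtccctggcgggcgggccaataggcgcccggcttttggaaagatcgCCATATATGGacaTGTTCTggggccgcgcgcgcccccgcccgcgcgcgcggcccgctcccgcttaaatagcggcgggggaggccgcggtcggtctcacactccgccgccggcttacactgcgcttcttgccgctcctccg
The Tmsb4x window was 52.7% G and C and the Actg1 window 77.3%. A TGTTCT occurred in 19.0% of 32851 promoter windows of this length, a CArG box in 1.63%, and the full palindrome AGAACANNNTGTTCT in 0.00913%. The palindrome was in none of the 11 windows that the table holds for 8 of the 9 genes. No window was matched for Actb. A match describes these letters and is not evidence of binding.

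Tmsb4x (NM_021278, mm10 chromosome X, 167207094 to 167209218, minus strand) had 68.9, 63.9, 58.1, 66.4 and 63.3 CPM in GRMAC libraries 1 to 5, against 47.0, 47.5, 42.5, 47.1 and 38.9 CPM in GRflox libraries 1 to 5. The lowest GRMAC library, number 3, lay above the highest GRflox library, number 2, so the genotypes did not overlap. Means were 64.1 ± 4.05 CPM in GRMAC and 44.6 ± 3.76 CPM in GRflox (SD, n = 5 each), a 1.44-fold higher level in GRMAC (log2 fold change 0.52 ± 0.07, SE). These levels rest on 1055 to 1728 counts in a library, for which counting error is 2.68% of the mean, well under the spread of 6.32% in GRMAC and 8.43% in GRflox (SD as a percent of the mean). In the authors' deposited table, which rests on the same libraries and so is not a separate measurement, the log2 fold change was also 0.52. Leaving out each library in turn gave 0.48 to 0.56.

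Tmsb10 (NM_001190327, chromosome 6, 72957347 to 72958748, minus strand) was far lower, with 3.40, 4.04, 4.05, 3.53 and 3.87 CPM in GRMAC and 3.36, 2.78, 3.42, 3.60 and 3.03 CPM in GRflox. The genotypes overlapped: GRMAC 1 and 4 lay among the GRflox values. Means were 3.78 ± 0.295 CPM in GRMAC and 3.24 ± 0.329 CPM in GRflox (log2 fold change 0.22 ± 0.12), from 74 to 105 counts a library. Per kilobase of transcript, the ratio of Tmsb4x to Tmsb10 was 11.6 to 16.4 in GRMAC and 10.1 to 13.8 in GRflox, which also overlapped.

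**Figure D1:**
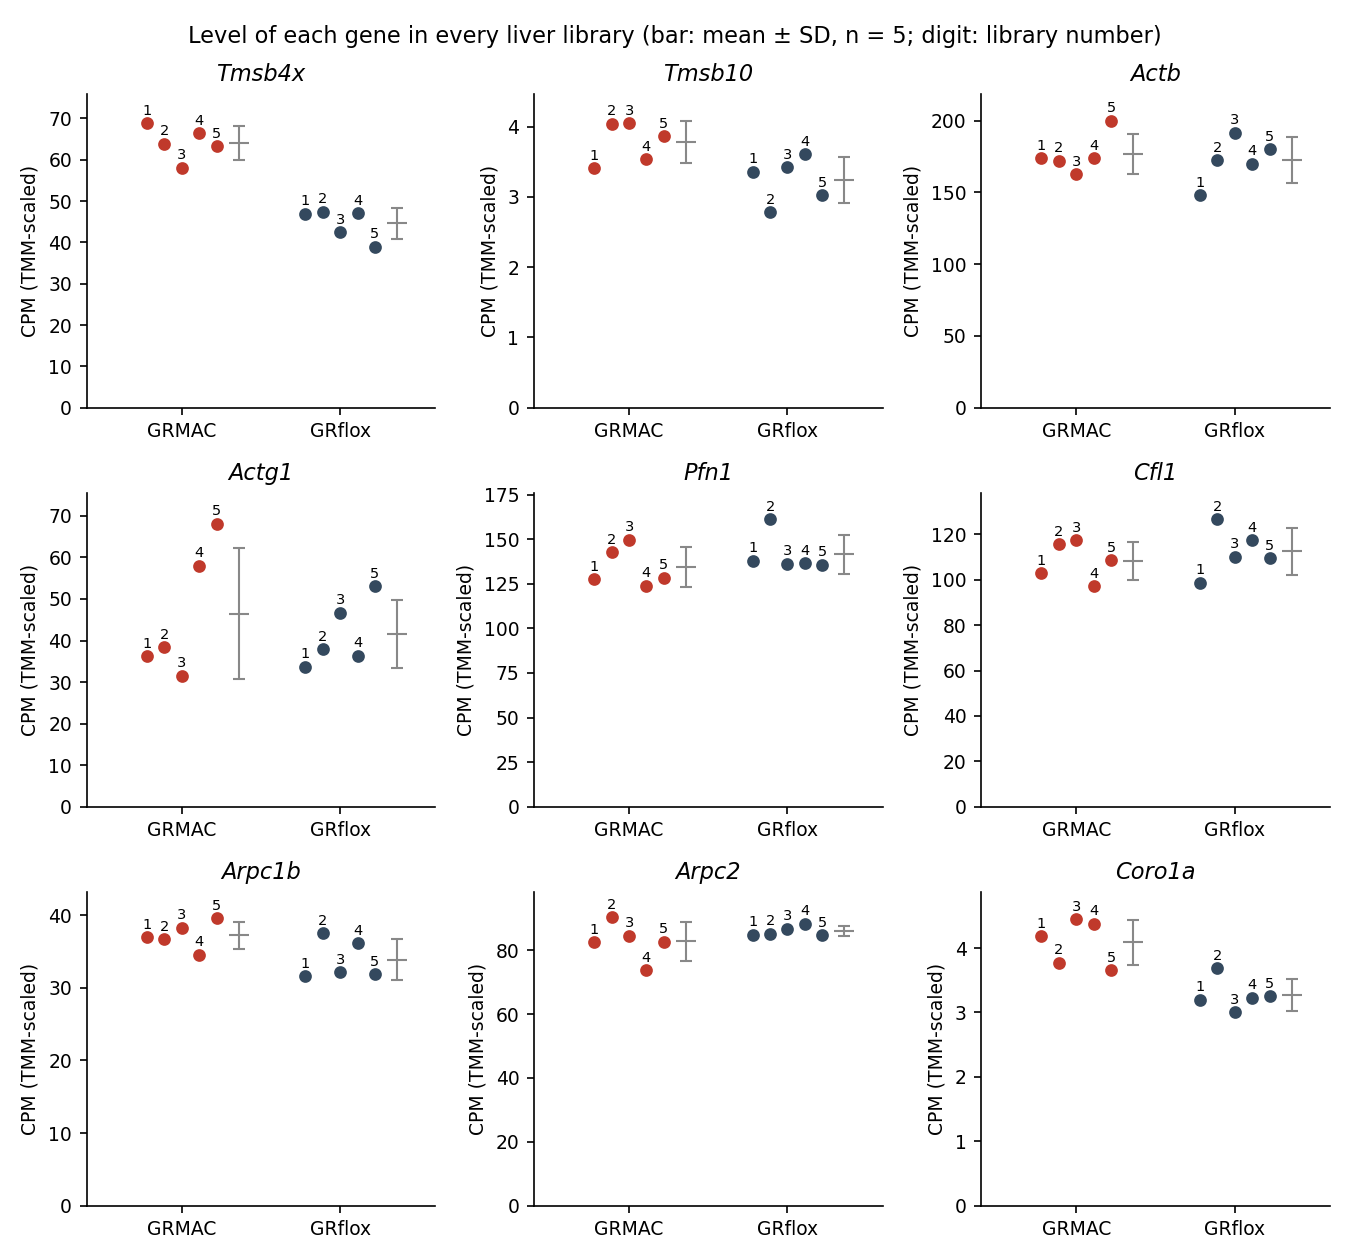
The level of each gene in CPM (vertical axes, from 0) in GRMAC (red) and GRflox (blue) liver; each point is a library marked with its number, and the grey bar beside it is the mean ± SD of 5 libraries. Tmsb4x is the panel whose genotypes are fully apart, at 58.1 CPM or more in GRMAC and 47.5 CPM or less in GRflox, while Actg1 is the most scattered within a genotype.

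The cytoplasmic actins themselves overlapped between the genotypes. Actb, encoding beta-actin (NM_007393, chromosome 5, 142903118 to 142906754, minus strand), had 173.9, 172.2, 162.5, 174.0 and 200.2 CPM in GRMAC and 148.1, 172.6, 191.8, 170.2 and 180.0 CPM in GRflox. The ranges overlapped over most of their width. Means were 176.6 ± 14.02 CPM in GRMAC and 172.5 ± 16.0 CPM in GRflox, with a log2 fold change of 0.03 ± 0.08, and the sign turned without GRMAC 5 (−0.02) or without GRflox 1 (−0.02).

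Actg1, encoding gamma-actin (NM_009609, chromosome 11, 120345690 to 120348484, minus strand), had 36.2, 38.5, 31.5, 58.0 and 68.2 CPM in GRMAC and 33.7, 37.9, 46.7, 36.4 and 53.1 CPM in GRflox. GRMAC 4 and GRMAC 5 were the highest of all 10 libraries, and GRMAC 3 was the lowest. Means were 46.5 ± 15.8 CPM in GRMAC and 41.6 ± 8.08 CPM in GRflox, with a log2 fold change of 0.16 ± 0.23, which was −0.02 without GRMAC 5. Its variation between libraries of a genotype, a biological coefficient of variation of 25.2% in edgeR, was above that of 92.7% of tested genes, and that of Actb was 10.04%. As a share of both actins per kilobase, gamma-actin was 17.0%, 18.0%, 16.0%, 24.7% and 25.1% in GRMAC and 18.3%, 17.8%, 19.3%, 17.4% and 22.5% in GRflox. For Actg1 9 annotated pseudogenes matched its coding sequence at 90% or more, and for Actb 1 did, as did a transcript of Lrrc58, which has a row of its own in the table, so how reads were shared with those copies bears on both. The Actb and Actg1 coding sequences are 88.7% identical.

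Of the genes for monomer turnover, Pfn1 encodes profilin 1, which recharges actin monomers and delivers them to filament ends (NM_011072, chromosome 11, 70651847 to 70654650, minus strand). It had 123.9 to 149.7 CPM in GRMAC, with a median of 128.5, and 135.6 to 161.2 CPM in GRflox, with a median of 136.6. Its means were 134.5 ± 11.2 CPM in GRMAC and 141.5 ± 11.04 CPM in GRflox, a log2 fold change of −0.07 ± 0.07. Without GRflox 2, the highest library, the log2 fold change was −0.02. Cfl1 encodes cofilin 1, the main cofilin outside muscle (NM_007687, chromosome 19, 5490455 to 5494031, plus strand). It had 97.3 to 117.5 CPM in GRMAC and 98.7 to 126.7 CPM in GRflox. Its log2 fold change was −0.05 ± 0.07, and 3 annotated pseudogenes share its coding sequence at 90% or more. Both genes overlapped between the genotypes.

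Among Arp2/3 genes, Arpc1b encodes the subunit form that prevails in blood cells (NM_023142, chromosome 5, 145114256 to 145128186, plus strand). It had 37.0, 36.7, 38.3, 34.5 and 39.6 CPM in GRMAC and 31.6, 37.5, 32.2, 36.2 and 31.9 CPM in GRflox. GRflox 2 and 4 lay within the GRMAC range and the other GRflox libraries below it. Means were 37.2 ± 1.89 CPM in GRMAC and 33.9 ± 2.76 CPM in GRflox (log2 fold change 0.14 ± 0.06), and 2 annotated pseudogenes share its coding sequence at 90% or more. Arpc2, a core subunit in every form of the complex (NM_029711, chromosome 1, 74236550 to 74268213, plus strand), had 73.7 to 90.3 CPM in GRMAC and 84.7 to 88.3 CPM in GRflox. Means were 82.7 ± 5.97 CPM in GRMAC and 86.0 ± 1.57 CPM in GRflox, the GRflox libraries being the tighter group, and the log2 fold change was −0.06 ± 0.06.

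Coro1a encodes coronin 1A, a filament-binding protein of leukocytes (NM_009898, chromosome 7, 126699774 to 126704816, minus strand). It had 4.18, 3.77, 4.44, 4.38 and 3.66 CPM in GRMAC and 3.20, 3.69, 3.005, 3.23 and 3.25 CPM in GRflox. A slight overlap came from GRMAC 5, which was below GRflox 2. Means were 4.09 ± 0.355 CPM in GRMAC and 3.27 ± 0.250 CPM in GRflox (log2 fold change 0.32 ± 0.11). It rested on 79 to 114 counts a library, for which counting error alone is 10.3% of the mean.

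Over the 9 genes, 6 had a positive log2 fold change, beside 50.2% of all 12558 tested genes, and the median was 0.14 beside 0.00. Tmsb4x was the only 1 of the 9 past an edgeR adjusted p of 0.05, beside 0.119% of all genes past it as higher in GRMAC, and the only 1 whose genotypes did not overlap, beside 2.05% of all genes above in every GRMAC library. In the authors' deposited table too Tmsb4x was the only 1 of the 9 past an adjusted p of 0.05, beside 1.84% of 12737 genes past it as higher. Since the list was made with this contrast known, nothing is read from these counts. The 8 genes other than Tmsb4x summed to 593.7 ± 27.7 CPM in GRMAC and 594.5 ± 32.4 CPM in GRflox.

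Levels of different genes were compared per kilobase of the longest matching GENCODE transcript. The same length served all libraries, so agreement between libraries does not check it, and another transcript could change the order. In plain CPM, Cfl1 (2354 bases) averaged 108.4 in GRMAC and 112.6 in GRflox, above Tmsb4x (768 bases) at 64.1 and 44.6. Whether reads in introns were counted is not given in the sources used here, and such reads would raise the value of a gene with long introns. Pfn1 was the highest, at 156 ± 13.0 CPM per kb in GRMAC and 164 ± 12.8 in GRflox, then Actb at 92.0 ± 7.30 in GRMAC and 89.9 ± 8.35 in GRflox. Tmsb4x followed at 83.5 ± 5.27 CPM per kb in GRMAC and 58.1 ± 4.89 in GRflox. Below it came Arpc2 (58.9 and 61.2 CPM per kb in GRMAC and GRflox), Cfl1 (46.0 and 47.8) and Actg1 (23.8 and 21.3). Arpc1b (11.98 and 10.91 CPM per kb in GRMAC and GRflox), Tmsb10 (6.07 and 5.20) and Coro1a (2.46 and 1.97) were the lowest. Each gene was above the next in 10 of 10 libraries, except Tmsb4x, which was above Arpc2 in 5 of 5 GRMAC libraries and in 2 of 5 GRflox libraries, so in GRflox those neighbours in the order did not separate. Relative to Actb, Tmsb4x per kilobase was 0.790 to 0.990 in GRMAC and 0.541 to 0.793 in GRflox.

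The wider actin machinery was described by 11 lists of other genes, arranged by role. Of 130 genes listed, 124 were in the table and 114 were tested, and 0 of these passed an adjusted p of 0.05 with edgeR, beside 0.175% of all genes. The count was also 0 with limma-voom, and 1 with DESeq2 (Coro2b). At an unadjusted p under 0.05 there were 15 of 114, 10 higher and 5 lower in GRMAC, beside 16.3% of all tested genes. The median log2 fold change over the 114 was 0.02, and 66 were positive. Every GRMAC library lay above every GRflox library for 1 gene, Evl, and below for 1, Coro2a, beside 2.05% and 2.01% of all genes.

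Among genes that handle monomers and build branches, the median differences of the lists were small, while single genes such as Abi2 differed more. Of 10 tested genes for monomer binding and disassembly 4 had a positive log2 fold change (median −0.03), and Gmfb, encoding glia maturation factor beta, which trims Arp2/3 branches, averaged 41.0 ± 3.88 CPM in GRMAC and 45.5 ± 3.53 CPM in GRflox (log2 fold change −0.15 ± 0.07, edgeR adjusted p = 0.321). The 7 other Arp2/3 subunits had a median of −0.04, and Arpc3 stood at 40.3 ± 1.27 CPM in GRMAC and 42.0 ± 1.59 CPM in GRflox (edgeR adjusted p = 0.580). Of 16 factors that switch the complex on, 13 had a positive log2 fold change, with a median of 0.03. The lowest p among them was that of Abi2, a subunit of the WAVE regulatory complex, at 12.2 ± 1.85 CPM in GRMAC and 9.52 ± 1.36 CPM in GRflox (log2 fold change 0.35 ± 0.12, edgeR adjusted p = 0.176). The 6 formins, which start unbranched filaments, had a median of 0.07, and Fmnl3 was at 3.73 ± 0.332 CPM in GRMAC and 3.23 ± 0.554 CPM in GRflox (edgeR adjusted p = 0.479).

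Capping proteins, coronins, bundling proteins and regulators held genes with larger differences, none past the threshold with edgeR. Capg, a filament-capping protein of macrophages, averaged 2.06 ± 0.547 CPM in GRMAC and 1.21 ± 0.339 CPM in GRflox (log2 fold change 0.77 ± 0.24, edgeR adjusted p = 0.153), while the 11 tested genes of its list had a median of 0.03. Coro2b, a coronin best known from neurons, averaged 4.56 ± 0.733 CPM in GRMAC and 9.01 ± 3.52 CPM in GRflox (log2 fold change −0.98 ± 0.25, edgeR adjusted p = 0.108). It passed with DESeq2, at an adjusted p of 0.00493, and was the only gene of the 114 tested past 0.05 in the authors' deposited table, where 3.33% of 12737 genes passed. Evl, which helps filaments elongate, averaged 3.88 ± 0.725 CPM in GRMAC and 2.80 ± 0.204 CPM in GRflox (log2 fold change 0.47 ± 0.14, edgeR adjusted p = 0.143). The 5 coronins had a median of 0.01, and the 18 bundling and cross-linking genes a median of 0.06 with 12 positive. Rac2, a small GTPase of blood cells, averaged 4.72 ± 1.12 CPM in GRMAC and 3.29 ± 0.448 CPM in GRflox (log2 fold change 0.52 ± 0.17, edgeR adjusted p = 0.169).

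Myosin, muscle actin and the targets of the actin-sensing MRTF and SRF pathway gave no call either. Myh14, a non-muscle myosin heavy chain, averaged 14.7 ± 0.885 CPM in GRMAC and 16.7 ± 0.998 CPM in GRflox (log2 fold change −0.19 ± 0.07, edgeR adjusted p = 0.205), and 3 of the 11 tropomyosin and myosin genes had a positive log2 fold change (median −0.09). Ctgf, a YAP and SRF target, averaged 8.07 ± 2.77 CPM in GRMAC and 14.2 ± 5.14 CPM in GRflox (log2 fold change −0.81 ± 0.30, edgeR adjusted p = 0.211), in a list of 9 tested genes with a median of 0.01. Egr1, an immediate early gene of the same list named after its value was seen, averaged 39.6 ± 26.4 CPM in GRMAC and 21.4 ± 5.19 CPM in GRflox (log2 fold change 0.89 ± 0.51, edgeR adjusted p = 0.433). Acta2, the smooth muscle actin that marks activated stellate cells, was near the limit of the data at 0.452 ± 0.228 CPM in GRMAC and 0.635 ± 0.441 CPM in GRflox (edgeR adjusted p = 0.674). Without GRflox 2 its log2 fold change was −0.02 in place of −0.48. Acta1, Actc1 and Actg2, the other muscle actins, had 0 to 3 counts a library and were below the filter, as were Pfn4, Cap2, Vil1, Scin, Pls1, Ankrd1 and Fosb.

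**Figure D2:**
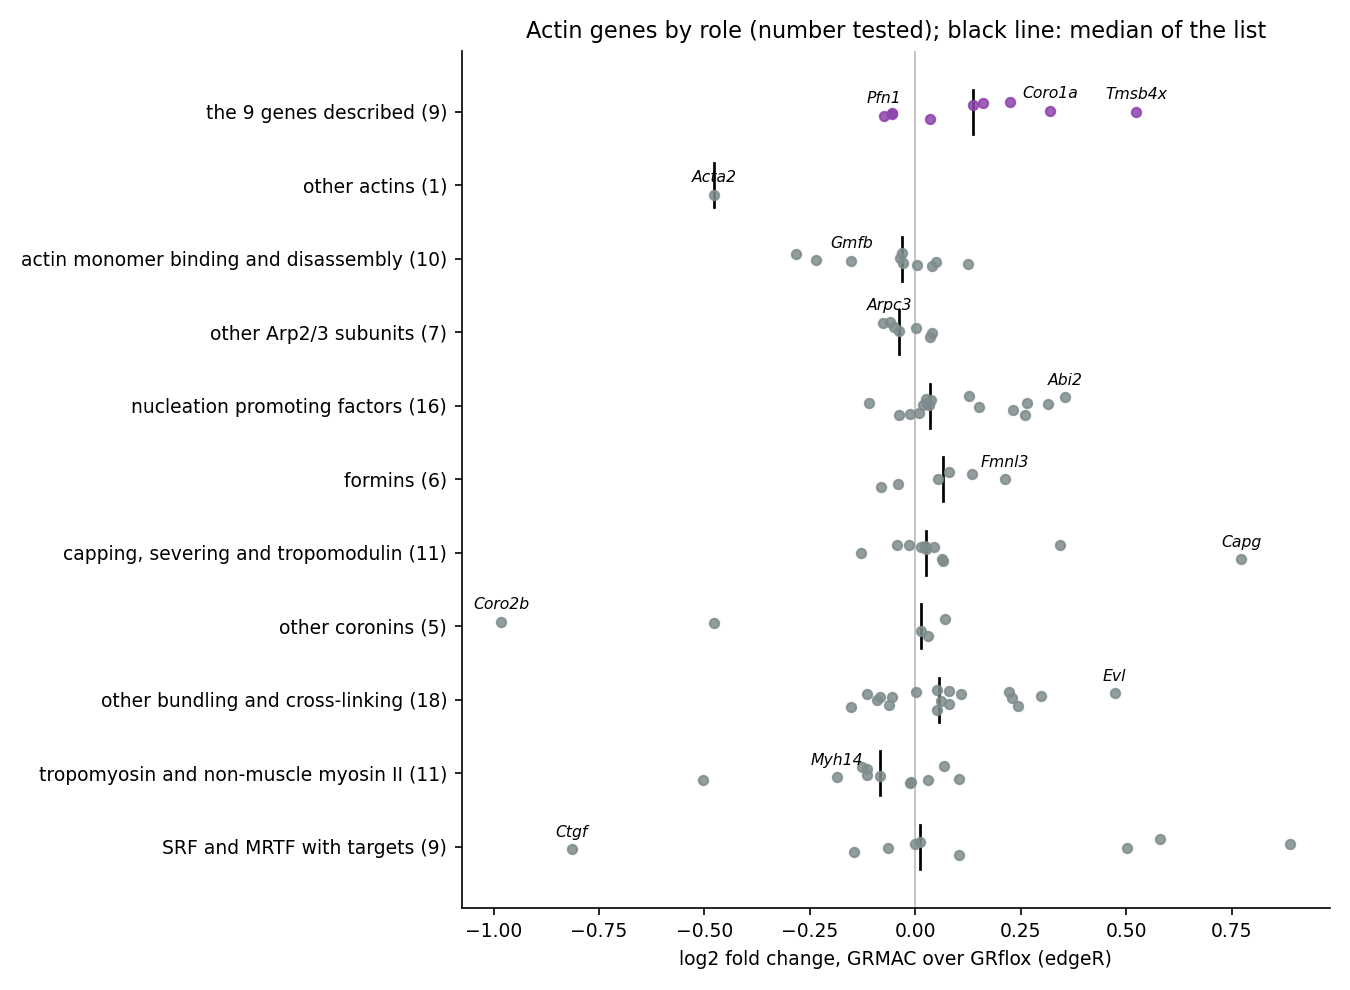
The log2 fold change of GRMAC over GRflox (horizontal axis) for the 9 genes described (purple) and for the tested genes of 10 of the actin lists (grey), 1 point a gene, with the number tested in brackets and a black line at each median. List medians lie near 0 except for the lone tested muscle actin, and single genes such as Capg (0.77) and Coro2b (−0.98) lie farther out than Tmsb4x (0.52) with wider errors.

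Since Tmsb4x is abundant in leukocytes, markers of immune and other liver cells were set beside it. The 10 pan-leukocyte markers, all measured, summed to 69.7 to 89.0 CPM in GRMAC and 68.0 to 76.2 CPM in GRflox, with a median log2 fold change of 0.22 and 9 of 10 positive. The 14 markers of Kupffer cells, the resident macrophages of the liver, summed to 531 to 633 CPM in GRMAC and 442 to 579 CPM in GRflox, with a median of 0.10. No marker of any list passed an edgeR adjusted p of 0.05. At an unadjusted edgeR p under 0.05 were 2 of 10 pan-leukocyte markers, 1 higher and 1 lower in GRMAC. So were 4 of 14 Kupffer markers, all higher in GRMAC, beside 16.3% of all tested genes in either direction.

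Sums for the other cell types also overlapped. Markers of monocytes and recruited macrophages summed to 10.3 to 12.1 CPM in GRMAC and 8.41 to 11.8 CPM in GRflox, and dendritic cell markers to 13.8 to 18.2 CPM in GRMAC and 13.1 to 15.5 CPM in GRflox. Neutrophil markers were low, at 3.25 to 6.22 CPM in GRMAC and 2.63 to 4.88 CPM in GRflox, and so were T and NK cell markers, at 2.81 to 5.08 CPM in GRMAC and 3.28 to 5.06 CPM in GRflox. B and plasma cell markers summed to 4.24 to 7.02 CPM in GRMAC and 3.04 to 5.17 CPM in GRflox. Of these, 5 were tested, with a median log2 fold change of 0.79, and 3 had an unadjusted p under 0.05 with all GRMAC values above all GRflox values, beside 2.05% of all genes. Of the dendritic cell markers 5 were tested, with a median of 0.32 and 2 at an unadjusted p under 0.05. Markers past an adjusted p of 0.05 as higher in the authors' deposited table included Cd5l of Kupffer cells (0.00560) and Batf3 of dendritic cells (0.0444), each with an edgeR adjusted p of 0.0928. Platelet markers, of note because platelets are rich in thymosin beta-4, summed to 10.3 to 16.9 CPM in GRMAC and 10.9 to 18.9 CPM in GRflox. Red blood cell markers, with Hba-a1 at 0 in all libraries, summed to 10.3 to 16.6 CPM in GRMAC and 11.3 to 17.9 CPM in GRflox. Sums for sinusoidal endothelium were 242 to 395 CPM in GRMAC and 318 to 360 CPM in GRflox, for stellate cells and fibroblasts 346 to 476 CPM in GRMAC and 355 to 433 CPM in GRflox, and for cholangiocytes 29.6 to 50.7 CPM in GRMAC and 28.6 to 36.3 CPM in GRflox.

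Tmsb4x was therefore expressed as a percent of marker sums, an index for comparing libraries and not a share of cells. Against pan-leukocyte markers it was 74.6% to 91.7% in GRMAC and 56.1% to 64.0% in GRflox. Against Kupffer markers it was 10.3% to 11.9% in GRMAC and 8.20% to 9.62% in GRflox. Against sinusoidal endothelial markers it was 15.8% to 26.4% in GRMAC and 11.3% to 14.8% in GRflox, and against stellate and fibroblast markers 13.9% to 18.4% in GRMAC and 8.99% to 13.3% in GRflox. The marker sums overlapped between the genotypes and Tmsb4x itself did not, so these 4 indices carry the same Tmsb4x values that chose the gene, and nothing is read from their separation. The part of leukocyte content in the Tmsb4x difference was not tested.

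**Figure D3:**
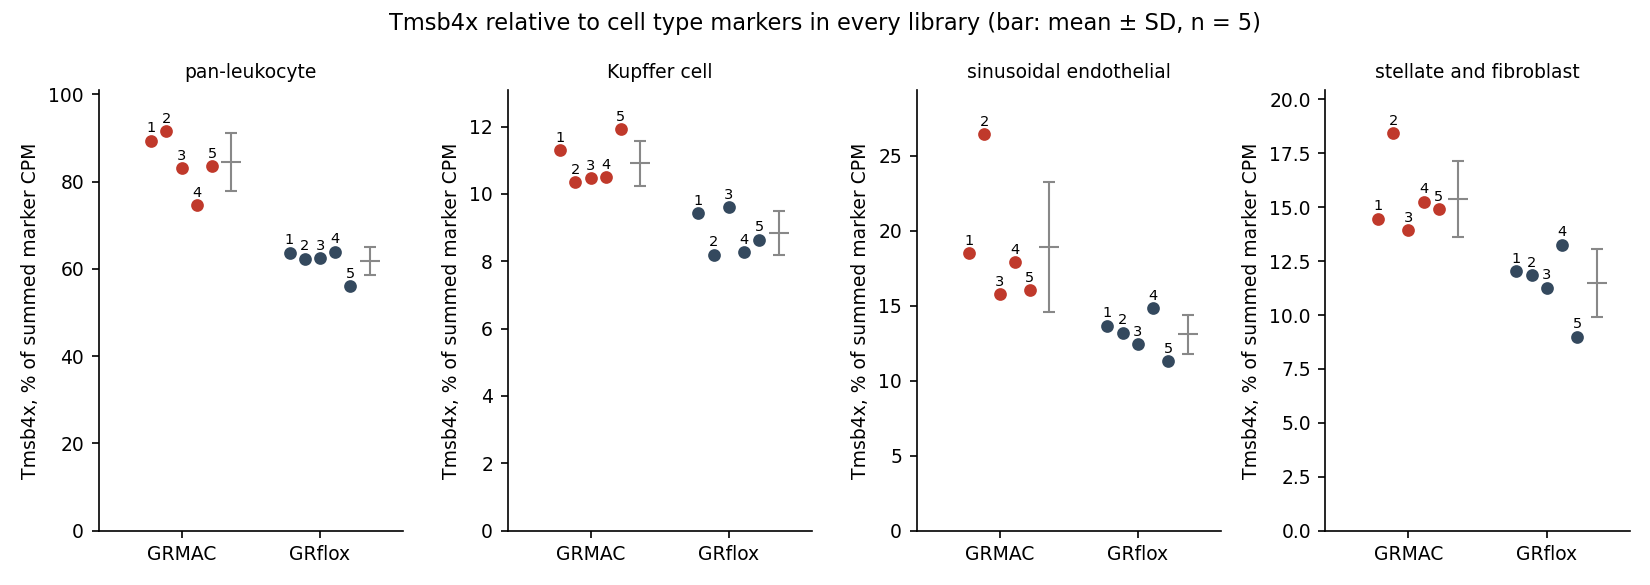
Tmsb4x as a percent of the summed CPM of pan-leukocyte, Kupffer cell, sinusoidal endothelial, and stellate and fibroblast markers (vertical axes, from 0) in GRMAC (red) and GRflox (blue); points are libraries marked with their numbers and grey bars are means ± SD (n = 5). The points follow the Tmsb4x values that chose the gene, divided by marker sums that overlapped, so the gap between the genotypes is a description; GRMAC 2 is highest in 3 of the 4 panels.

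Libraries also differed in their dependence on base composition. The slope of a library's log2 level on GC content, per 10 percentage points, was −0.0545 to 0.00871 in GRMAC and 0.00808 to 0.0698 in GRflox. At 46.4% GC the Tmsb4x transcript was the lowest of the 9, which ranged up to 58.6% for Coro1a. With GC content and length corrected in each library the log2 fold change of Tmsb4x was 0.52. That correction gave 0.28 for Tmsb10 in place of 0.22, and 0.37 for Coro1a in place of 0.32. For Pfn1 it gave −0.02 in place of −0.07, and for Arpc2 −0.03 in place of −0.06. The other genes described moved less than these.

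How the 9 genes moved together was examined within each genotype, on deviations of log2 CPM from the genotype mean over 10 libraries, which do not hold the difference between genotypes. Tests were two-sided exact permutation tests over all orders within genotype, with Benjamini-Hochberg adjustment within each family of relations. No relation of Tmsb4x with the other 8 genes passed the adjustment, and Pearson's r ran from −0.28 with Actb (exact p = 0.477, adjusted p = 0.802) to 0.25 with Arpc1b (exact p = 0.556, adjusted p = 0.802). Spearman's rho for these was −0.25 with Actb and 0.31 with Arpc1b (exact p = 0.527 and 0.428, adjusted p = 0.844 for both). Without GRMAC 3 and GRflox 5, the libraries with the most extreme Tmsb4x values, r was −0.66 with Actb and 0.75 with Coro1a, in place of 0.16 for Coro1a.

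Some of the other 28 pairs, examined after the data were seen, moved more closely. For the actins Actb and Actg1, r was 0.76 (exact p = 0.00264, adjusted p = 0.0739) and rho 0.81 (exact p = 0.00125, adjusted p = 0.0350), so the rank relation passed the adjustment and the linear relation did not. Without GRMAC 5 and GRflox 1 their r was 0.61. With a single library left out, their r passed only without GRflox 5 (0.75, adjusted p = 0.0389). Without GRMAC 5 the adjusted p was 0.267. Pfn1 and Cfl1 had r = 0.80 (exact p = 0.0160, adjusted p = 0.149) and rho = 0.71 (exact p = 0.0273, adjusted p = 0.191). That r was 0.60 without GRMAC 3 and GRflox 2. With a single library left out it passed only without GRflox 1, at 0.91 with an adjusted p of 0.00972. Without GRMAC 4 the adjusted p was 0.469. Cfl1 and Arpc1b had r = 0.79 (exact p = 0.0122, adjusted p = 0.149) and rho = 0.79 (exact p = 0.0110, adjusted p = 0.155). Their r was 0.64 without GRflox 1 and GRflox 2. With a single library left out it passed only without GRMAC 5, at 0.84 with an adjusted p of 0.0486. Without GRMAC 4 the adjusted p was 0.469.

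**Figure D4:**
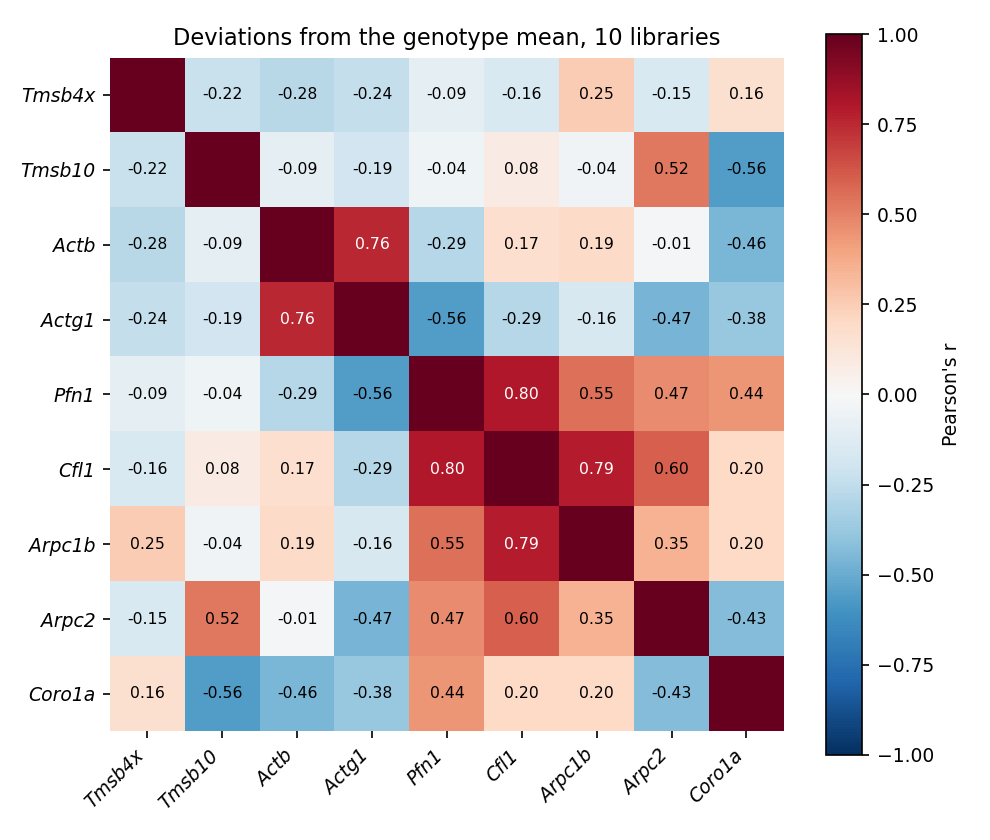
Pearson's r between each pair of the 9 genes, from deviations of log2 CPM from the genotype mean over 10 libraries (colour scale from −1, blue, to 1, red). The Tmsb4x row is pale, from −0.28 to 0.25, while Actb with Actg1 (0.76) and Pfn1 with Cfl1 (0.80) and Cfl1 with Arpc1b (0.79) stand out.

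Within genotypes the leukocyte score, the mean log2 deviation of the 10 pan-leukocyte markers, was compared with each of the 9 genes. With Tmsb4x r was 0.68 (exact p = 0.0244, adjusted p = 0.110) and rho 0.72 (exact p = 0.0223, adjusted p = 0.201), so the relation did not pass the adjustment. Leaving out GRMAC 2 and GRMAC 4, the most extreme scores, gave r = 0.91. Arpc2 ran the other way, at r = −0.81 (exact p = 0.0190, adjusted p = 0.110) and rho = −0.62 (exact p = 0.0763, adjusted p = 0.229), but at −0.33 without GRMAC 2 and GRMAC 4 the relation rests on those libraries. Coro1a, a leukocyte gene, had r = 0.45 with the score (exact p = 0.245, adjusted p = 0.441) and rho = 0.41 (exact p = 0.291, adjusted p = 0.524). Without GRflox 5, 2 of the 17 planned relations passed: Arpc2 (r = −0.91, adjusted p = 0.0219) and Tmsb10 (r = −0.74, adjusted p = 0.0469) with the leukocyte score.

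With a score of the 14 Kupffer cell markers, examined after the data were seen, Tmsb4x had r = 0.80 (exact p = 0.0115, adjusted p = 0.103 over 9 relations) and rho = 0.78 (exact p = 0.0207, adjusted p = 0.186). It was 0.92 without GRMAC 4 and GRflox 3. GRMAC 1 and 4 and GRflox 1, 2 and 4 were above their genotype's mean in both Tmsb4x and the Kupffer score, and the other 5 libraries were below it in both.

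**Figure D5:**
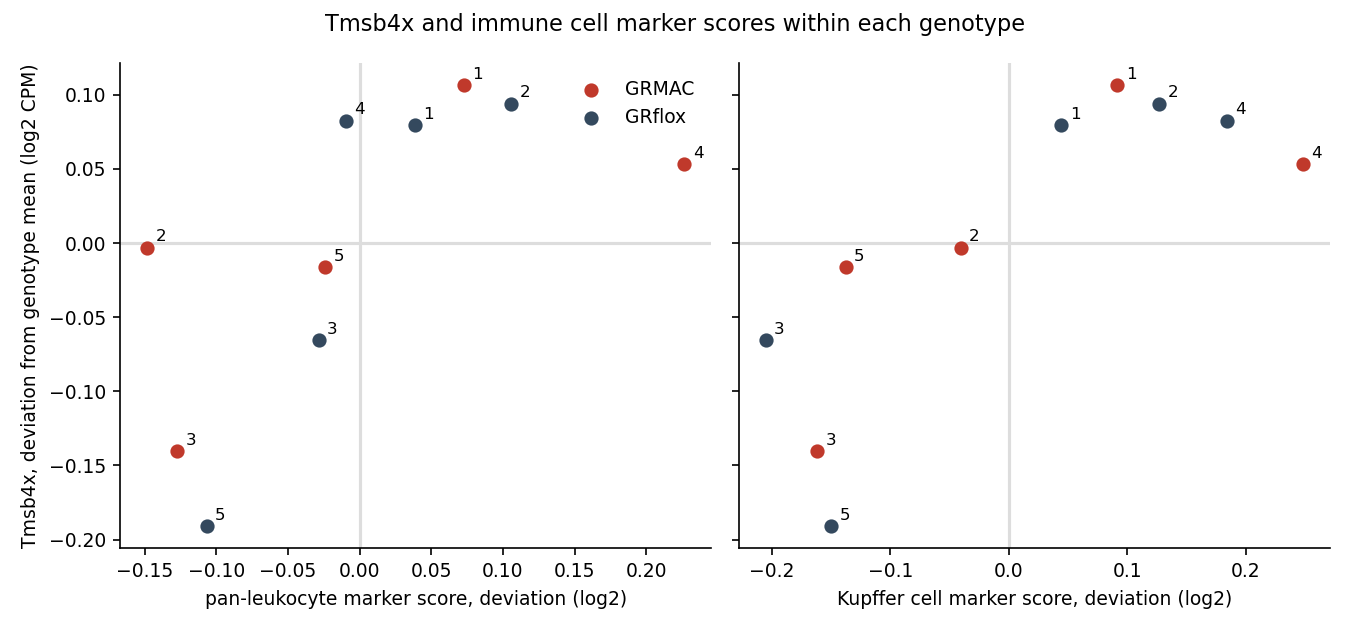
The deviation of Tmsb4x from its genotype mean (log2 CPM, vertical axis) against that of the pan-leukocyte score (left) and the Kupffer cell score (right), for GRMAC (red) and GRflox (blue) libraries marked with their numbers. Points run from lower left to upper right, with r = 0.68 for leukocytes and r = 0.80 for Kupffer cells, neither past the adjusted threshold.

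The genes whose pattern within genotypes was most like that of Tmsb4x were taken from 7962 genes with a mean of at least 10 CPM over the 10 libraries, as a description. They were Usb1 (r = 0.95), Trim26 (0.87), Sae1 (0.87), Exph5 (0.87) and Atp1b3 (0.87). Picked as the highest of so many, these r values were not tested and are not set against those of the marker scores. Between the genotypes, Usb1 averaged 14.1 ± 0.448 CPM in GRMAC and 12.4 ± 0.659 CPM in GRflox (log2 fold change 0.18 ± 0.07, edgeR adjusted p = 0.197), and Exph5 averaged 22.6 ± 3.38 CPM in GRMAC and 18.9 ± 2.21 CPM in GRflox (0.26 ± 0.11, adjusted p = 0.274). The log2 fold changes of the other 3 genes were 0.06 ± 0.06 for Trim26, −0.14 ± 0.07 for Sae1 and −0.01 ± 0.06 for Atp1b3, with edgeR adjusted p of 0.638, 0.330 and 0.933.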

How the data were processed

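Per the labels' protocols, liver RNA of 5 GRMAC and 5 GRflox samples was sequenced from paired-end NEBNext Ultra libraries. The authors deposited a table of whole-number read counts per gene, with mm10 coordinates and no normalization. A second deposited table gives the authors' log2 fold changes and adjusted p-values, per the file headers. It also holds the authors' scaled signal per library, which the values show to be the counts times 1 factor per library, and which was not used. HISAT2 2.1.0, DESeq2 1.24.0 and mm10 are named in the submitters' processing notes. The counting program, annotation, strand setting, handling of introns and design formula are not given in the sources used here.

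Columns were matched to samples by genotype and number. Low genes were removed with filterByExpr of edgeR 4.0.16 (R 4.3.3), leaving 12558 of 19764 genes, and a count of 3 is 0.111 to 0.129 CPM. The genotypes were compared with the quasi-likelihood test of edgeR (robust, TMM), with Benjamini-Hochberg adjustment over all tested genes at 0.05. The test was checked on simulated counts. Lengths, GC content and coding sequences came from GENCODE M21, which gave length and GC for 99.9% of tested genes, and promoters from RefSeq (GRCm38.p6). Copies were sought with BLAST+ 2.17.0. Log2 CPM for deviations used a prior count of 2.

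The 9 genes, the actin and marker lists and the tests were chosen with earlier results of these data known. Of the 11 actin lists 1 is counted in the totals and not reported here by itself, and neither are some single genes. Named genes are all listed genes, the gene of lowest p in each actin list (up to 3 past the threshold), and the 5 genes most like Tmsb4x. Coro2a, Egr1 and the single markers named were named after their values were seen. Alternatives were DESeq2 1.42.0, limma-voom (limma 3.58.1), other scalings, filters and prior counts, a replicate block, a GC and length correction (splines with 5 degrees of freedom), and leaving out each library. Counting errors cover counting only.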

Additional observations from a re-analysis of the deposited data

Results flagged for a closer look

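In 76 groups of 5 libraries (the genes described, the named actin genes, the genes most like Tmsb4x and the marker sums, in each genotype), 4 values stood far from the other 4 libraries of their group by Dixon's criterion. Chance gives about 1 in 20 groups, or 3.8. GRflox 2 had 161.2 CPM of Pfn1, with the other GRflox libraries at 135.6 to 137.9 CPM. GRMAC 2 had a sum of 242 CPM for sinusoidal endothelial markers, with the other GRMAC libraries at 369 to 395 CPM. GRMAC 4 had 6.22 CPM of summed neutrophil markers, with the other GRMAC libraries at 3.25 to 3.50 CPM. GRflox 2 had 13.1 CPM of summed dendritic cell markers, with the other GRflox libraries at 14.98 to 15.53 CPM. No library of Tmsb4x stood apart in either genotype.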

How the results depend on the processing

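The log2 fold change of Tmsb4x lay between 0.48 and 0.56 over all 19 alternatives, and the scalings moved the median of all genes by at most 0.02. Of the 6 relations within genotypes recomputed and the log2 fold changes of the 9 genes and of the actin gene with the lowest p in each list, none turned its sign except those of Actb (−0.02 without GRMAC 5 or GRflox 1) and Actg1 (−0.02 without GRMAC 5). Of the 114 actin genes, 0 passed with edgeR and 1 with DESeq2, Coro2b (log2 fold change −0.98, adjusted p = 0.00493). Leaving out each library gave 0 throughout. The cause of the difference between the tools was not tested. Over all genes, calls numbered 22 with edgeR, 424 with DESeq2, 8 with limma-voom, 8 without robust estimation, 34 without the filter, 9 with the GC and length correction, and 5 to 47 when each library was left out. Of the 17 planned relations within genotypes 0 passed, and 0 to 2 when each library was left out, with 2 reached without GRflox 5. The r of Actb and Actg1 passed with library totals in place of TMM (0.79, adjusted p = 0.0447).

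For fold changes and calls, the replicate block is a fit with the replicate number as a term. For the relations within genotypes it takes the 5 differences between same-numbered libraries, GRMAC minus GRflox. Same-numbered libraries deviated together with r over 0.1 for 2 of 5 numbers (0.23 for number 2 and 0.17 for number 3). For number 4 r was −0.13, and 4 of 10 libraries correlated best with their own number. Whether same-numbered libraries share more than a number was not tested. With the replicate block 81 genes passed in all and 0 of the 114 actin genes, and the log2 fold change of Tmsb4x was 0.53. Of the planned relations 0 passed, but with 5 differences no single relation could pass on its own. Nothing is read from that 0: Arpc2 with the leukocyte score had r = −0.898 and an adjusted p of 0.5 in the exact test. Over the same 5 differences r of Tmsb4x was 0.35 with the Kupffer score and 0.50 with the leukocyte score. Depth limits Tmsb10 and Coro1a most, at 74 to 114 counts a library, and the muscle actins, which could not be compared.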
